A study of Mus musculus with 8 samples.

Results

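The genes described here carry out heme breakdown, iron storage and iron transport: Hmox1, Hmox2, Blvra, Blvrb, Fth1, Ftl1, Fech, Tfrc, Trf and Cp. They were chosen by name, and all 10 were present among the 12339 genes of the deposited table. RNA bound to ribosomes of Müller cells, the radial glia that span the retina, was sequenced from mouse retina at postnatal day 14 of oxygen-induced retinopathy (OIR), in which pups exposed to high oxygen return to room air and the inner retina becomes hypoxic. The 4 wild-type (WT) samples and the 4 conditional knockout (cKO) samples, in which Nrf2 was deleted in Müller cells, were all exposed to OIR, and each group carried the replicate numbers 1, 3, 4 and 5. RiboTag, the method named for the series, tags a ribosomal protein in Cre-expressing cells so that their ribosomes and the RNA on them can be pulled down. The labels used here name no Cre driver, deleted exon, strain, sex or number of animals per sample, and no room-air group was analysed, so each value belongs to the OIR state and a p-value covers the spread from sample to sample, which may be technical.

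Heme oxygenases open the heme ring and release iron, carbon monoxide and biliverdin, which biliverdin reductases turn into bilirubin. Free iron drives the formation of radicals, so it is stored inside ferritin, a shell of heavy (Fth1) and light (Ftl1) chains, or carried outside cells on transferrin (Trf), which cells take up through the transferrin receptor (Tfrc). Hmox1, the ferritin chains, Blvrb and Fech are known in other settings as targets of Nrf2, a transcription factor that binds antioxidant response elements, while Bach1, a repressor that heme inactivates, acts on many of the same elements. The comparison of cKO with WT asked which of these transcripts changed in the Müller cell pull-down once Nrf2 was lost.

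The ferritin chains and the transferrin receptor are also controlled through a hairpin in their mRNA, the iron-responsive element, whose loop is bound by iron regulatory proteins when iron is low. Bound in front of the coding sequence, as in ferritin mRNA, these proteins block translation, and bound behind it, as in Tfrc, they protect the mRNA. These elements are shown because they set apart the 3 members that share this control. In the GENCODE transcripts on GRCm38, the sense strand of every protein-coding transcript was searched for CNNNNNCAGTGNNNNNN in which the 5 bases on each side of the loop can pair, G with T included. Among the 10 members, Fth1, Ftl1 and Tfrc held a match, against 203 of the 11508 protein-coding genes of the table (1.76%). A match is a description of the sequence and not a test of binding. The loop is in capitals, and the 5 bases on each side of it are the stem whose pairing was searched for. The first C of the pattern stands before the left stem. The outermost 5 bases on each side are flanks that the search did not use.
Fth1, first exon, 5′ UTR, chr19:9982733-9982759, plus strand: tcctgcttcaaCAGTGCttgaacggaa
Ftl1, first exon, 5′ UTR, chr7:45459780-45459806, minus strand: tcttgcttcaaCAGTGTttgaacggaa
Tfrc element 1, last exon, 3′ UTR, chr16:32631220-32631246, plus strand: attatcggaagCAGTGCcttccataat
Tfrc element 2, last exon, 3′ UTR, chr16:32631599-32631625, plus strand: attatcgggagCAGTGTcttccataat
Tfrc element 3, last exon, 3′ UTR, chr16:32631664-32631690, plus strand: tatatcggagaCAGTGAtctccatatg
Tfrc element 4, last exon, 3′ UTR, chr16:32631711-32631737, plus strand: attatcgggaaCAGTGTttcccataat

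Levels are FPKM, fragments scaled to transcript length and to the size of the library, so levels of different genes can be set side by side. Library sums of FPKM ran from 410581 to 448130, and the number of fragments behind them is not given. Nfe2l2, the gene of Nrf2, had 19.2 ± 2.66 FPKM in WT against 13.6 ± 2.66 in cKO (SD, n = 4 per group), with each cKO value below each WT value. Its log2 difference was −0.50 (limma, adjusted p = 0.453, and 0.0219 with the replicate number as a block). With the block it stayed past the threshold of 0.05 without pair 3 (0.0182) and not without pair 1 (0.0785), 4 (0.0846) or 5 (0.0634). The value covers the whole gene and not the deleted stretch alone. Müller cell markers were abundant (summed level 8437 to 14290 FPKM in WT and 8480 to 12430 in cKO, 10 of 10 measured, Glul and Apoe highest). Of these 10, 1 passed with the block, Aqp4, which was lower in cKO (log2 difference −0.35, limma, adjusted p = 0.478, and 0.0346 with the block). Sag, a rod gene, had 718 ± 128 FPKM in WT against 722 ± 159 in cKO, and Pcp2, a bipolar cell gene, 742 ± 110 against 1053 ± 125 (log2 difference 0.51, limma, adjusted p = 0.453, and 0.00624 with the block), so the pull-downs also held RNA of other retinal cells. Of the microglia and macrophage markers Aif1, Cx3cr1 and Csf1r were absent from the table, and of 8 erythroid markers only Hbb-bs was in it, at 1.15 to 3.59 FPKM. Xist, an RNA of female cells, was above 2 FPKM in 4 WT and 2 cKO libraries, so the groups were not matched for sex. It was at 0.0863 and 0.00505 FPKM in cKO 4 and cKO 5, against 39.9 and 27.0 in WT 4 and WT 5. Pairs 4 and 5 thus joined libraries unlike in Xist, and pairs 1 and 3 did not.

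By mean level over the 8 libraries the order was Trf (297 FPKM), Cp (202), Fth1 (185), Ftl1 (90.4), Hmox2 (35.7), Tfrc (33.3), Fech (17.3), Blvra (16.0), Blvrb (5.01) and Hmox1 (4.97). Fth1 stood above Ftl1, Ftl1 above Hmox2, Tfrc above Fech and Blvra above Blvrb in 8 of 8 libraries. Hmox2 and Tfrc changed places with genotype, Tfrc being above Hmox2 in 4 of 4 WT libraries and below it in 4 of 4 cKO libraries. The other neighbours changed places between libraries, Trf being above Cp in 5 of 8 and Blvrb above Hmox1 in 5 of 8. The abundant members were thus those of iron transport and storage, and Hmox1 and Blvrb were the lowest, with means that did not differ beyond their spread. Between the highest and the lowest library the level differed 4.43-fold for Trf, 2.73-fold for Hmox1 and 2.37-fold for Cp, but by no more than 1.61-fold for the other 7.

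**Figure D1:**
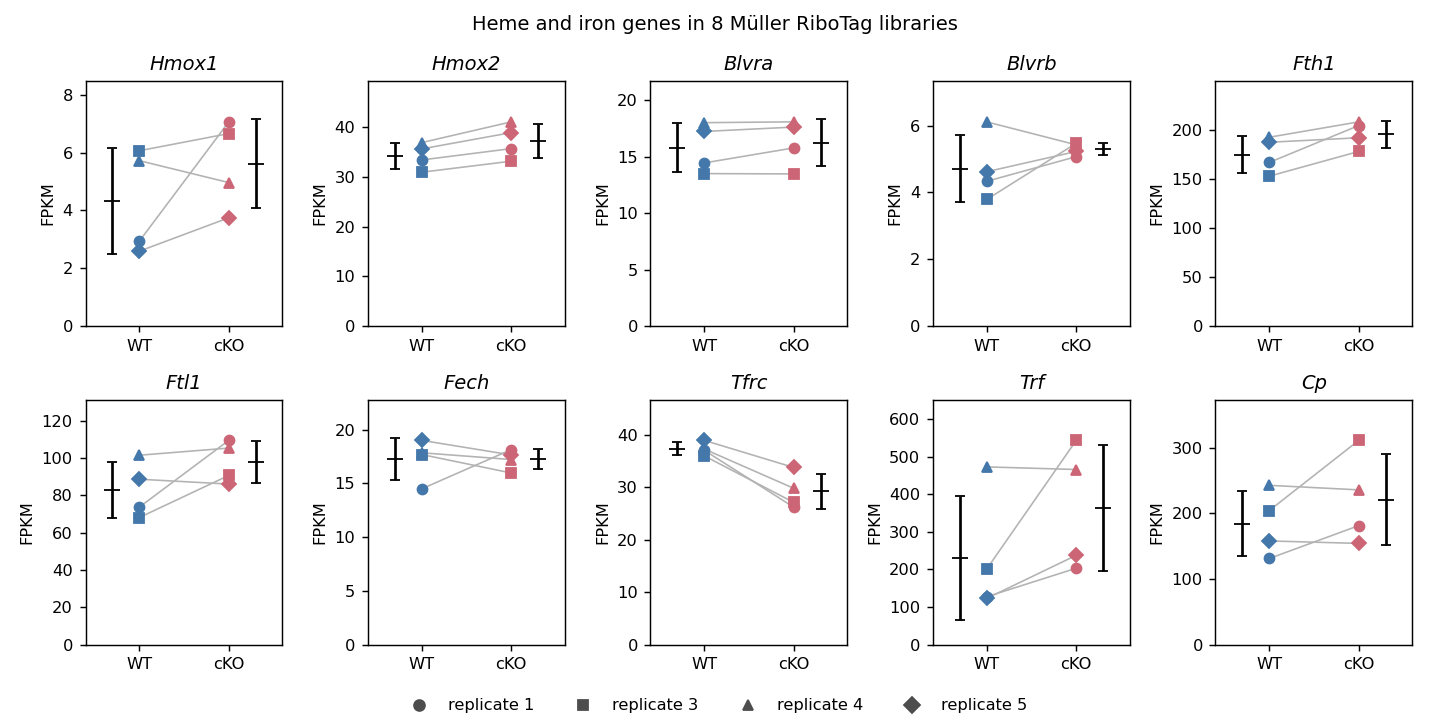
FPKM of each of the 10 genes (vertical axes from 0) in the WT and cKO libraries. Symbols mark the replicate number, grey lines join libraries of equal number, and bars give the mean and SD of 4 libraries. Tfrc is the gene whose groups do not overlap, and Trf, Hmox1 and Cp spread most between libraries.

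Tfrc, the receptor that brings transferrin-bound iron into cells, was lower in all cKO libraries. Tfrc (ENSMUSG00000022797; GRCm38 chromosome 16, 32608920 to 32632794, plus strand) was at 37.1, 36.0, 37.3 and 39.0 FPKM in WT 1, 3, 4 and 5 and at 26.2, 27.1, 29.8 and 33.8 in cKO 1, 3, 4 and 5. The WT values lay within a 1.08-fold range, the cKO values within a 1.29-fold range, and the highest cKO library, cKO 5, was below the lowest WT library. The means of 37.3 ± 1.22 and 29.2 ± 3.40 FPKM (SD, n = 4 each) differed by −21.7%. On the log2(FPKM + 0.5) scale, which is used for every difference below, this was −0.35 (SE 0.10, 95% interval −0.57 to −0.14). Tfrc did not pass in the fit without the block (adjusted p = 0.453), and it fell in the fit with it (adjusted p = 0.0209). Within the pairs the differences were −0.49, −0.40, −0.32 and −0.20 for numbers 1, 3, 4 and 5. With the block, Tfrc was past the threshold of 0.05 without pair 5 (adjusted p = 0.0306) and not without pair 1 (0.0844), 3 (0.0779) or 4 (0.0704), while its difference stayed between −0.40 and −0.31. In the 6 libraries with Xist its difference was −0.48 (adjusted p = 0.9998 without the block). Less RNA per Müller cell and fewer cells of a type that carries the gene cannot be told apart in these bulk samples. Endothelial cells are rich in this receptor, and their list summed to 163 to 242 FPKM in WT and 148 to 203 in cKO, with 2 of 8 markers in the table (Kdr and Flt1) and Pecam1, Cldn5 and Cdh5 absent from it. The part of these cells in the Tfrc difference was not tested.

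Both ferritin chains had higher means in cKO, with groups that overlapped. Fth1, which holds the site that oxidizes iron for storage (ENSMUSG00000024661; GRCm38 chromosome 19, 9980598 to 9985098, plus strand), was at 167, 153, 193 and 187 FPKM in WT 1, 3, 4 and 5 and at 205, 178, 208 and 192 in the cKO libraries of the same numbers. Each cKO library was above the WT library of its number, by 0.29, 0.22, 0.11 and 0.03 (log2), although WT 4 was above cKO 3 and about level with cKO 5. The difference was 0.17 (95% interval −0.07 to 0.40, adjusted p = 0.552, and 0.146 with the block). Ftl1, the light chain that favours the iron core (ENSMUSG00000050708; GRCm38 chromosome 7, 45457944 to 45459884, minus strand), was at 73.6, 68.1, 102 and 88.6 FPKM in WT and at 109, 90.7, 105 and 86.0 in cKO. Its pairs 1 and 3 differed by 0.57 and 0.41 and pairs 4 and 5 by 0.05 and −0.04. The difference was 0.25 (95% interval −0.06 to 0.56, adjusted p = 0.509, and 0.167 with the block). Ferritin has processed copies elsewhere in the genome, and 1 of 5 genes named as Fth pseudogenes was itself in the table, so reads of these chains could have been split or shared.

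The ratio of Fth1 to Tfrc within a library, which no scaling of the library can move, separated the groups. Tfrc alone also separated them, and the interval of Fth1 included 0 (−0.07 to 0.40), so the ratio is not separate evidence. The part of the hairpins in it was not tested. The ratio of Fth1 to Tfrc FPKM was 4.50, 4.25, 5.16 and 4.81 in WT 1, 3, 4 and 5 and 7.81, 6.57, 6.99 and 5.69 in the cKO libraries. The highest WT ratio (WT 4) was below the lowest cKO ratio (cKO 5). The log2 ratio differed by 0.53 (exact permutation test, two-sided, p = 0.0286, which is the lowest value possible with 70 assignments). It was 1 of 5 ratios compared, and the Benjamini-Hochberg adjusted p was 0.143. With any 1 library left out the difference stayed between 0.45 and 0.61 (exact permutation p between 0.0286 and 0.0571). The ratio of Fth1 to Ftl1 was 2.13 ± 0.170 in WT against 2.01 ± 0.156 in cKO (SD, n = 4 per group, exact permutation p = 0.343, adjusted 0.429), a difference within the spread of these libraries.

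**Figure D2:**
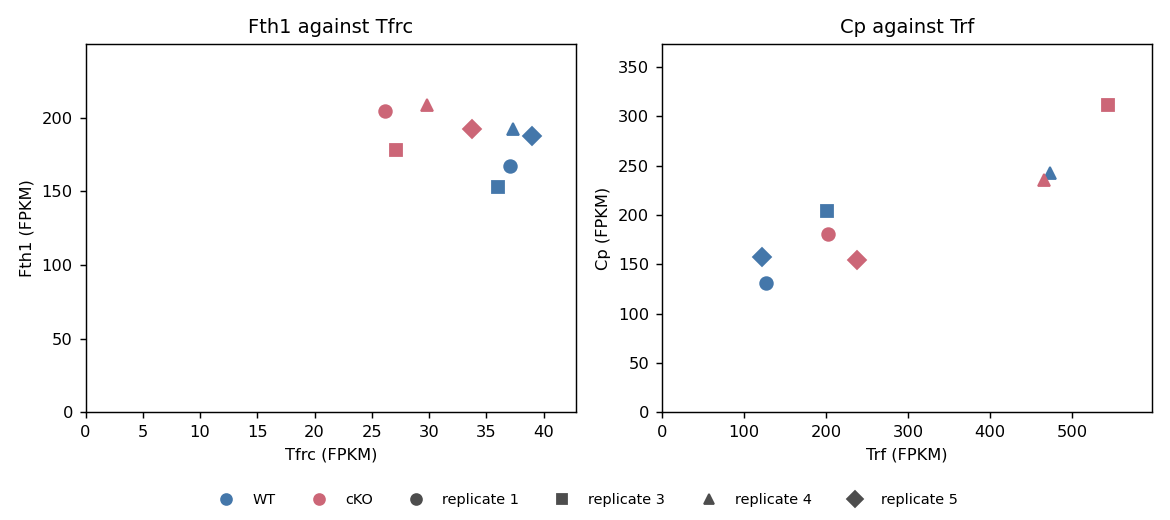
Left, Fth1 against Tfrc, and right, Cp against Trf, in FPKM on linear axes from 0, with 1 point per library coloured by genotype and shaped by replicate number. On the left the cKO points lie to the left of all WT points, at Tfrc levels of 26.2 to 33.8 FPKM. On the right cKO 3, cKO 4 and WT 4 stand apart with the highest levels of both genes.

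Trf and Cp, which handle iron outside the cell, were the members with the highest mean levels and varied widely between libraries. Trf, transferrin (ENSMUSG00000032554; GRCm38 chromosome 9, 103204001 to 103230444, minus strand), was at 127, 201, 473 and 123 FPKM in WT 1, 3, 4 and 5 and at 203, 543, 466 and 237 in cKO 1, 3, 4 and 5. WT 4 was far above the other WT libraries, and the groups overlapped. Trf rose in the fit with the block (difference 0.76, 95% interval 0.31 to 1.21, adjusted p = 0.0475), but not in the fit without it (95% interval −0.24 to 1.76, adjusted p = 0.528). Its pairs 1, 3 and 5 differed by 0.67, 1.43 and 0.95 and pair 4 by −0.02. With the block, Trf was past the threshold without pair 4 (1.02, adjusted p = 0.0177) and not without pair 1 (0.79, adjusted p = 0.136), 3 (0.53, adjusted p = 0.118) or 5 (0.69, adjusted p = 0.129), nor with quantile scaling (0.68, adjusted p = 0.0679). Without the block, leaving out WT 4 gave 1.18 (adjusted p = 0.304). The deposited span of Trf is wider than the annotated gene, as it also is for Hmox2, Ftl1 and Cp, and Gm20425, on the same strand and overlapping it, has a row of its own, so the division of reads between them is uncertain.

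Cp, ceruloplasmin, is a copper enzyme that oxidizes iron as it leaves cells and is made by Müller glia (ENSMUSG00000003617; GRCm38 chromosome 3, 19957054 to 20009145, plus strand). It was at 131, 204, 242 and 158 FPKM in WT 1, 3, 4 and 5 and at 181, 311, 236 and 154 in the cKO libraries. Pairs 1 and 3 differed by 0.47 and 0.61 and pairs 4 and 5 by −0.04 and −0.03, so the direction was shared by 2 of 4 pairs. The difference was 0.25 (95% interval −0.29 to 0.79, adjusted p = 0.687, and 0.210 with the block). The ratio of Cp to Trf was 0.962 ± 0.324 in WT against 0.655 ± 0.169 in cKO (SD, n = 4 per group, exact permutation p = 0.171, adjusted 0.429). Hps3 overlaps Cp on the other strand and is in the table, and whether counting used strand is not stated.

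Gfap, a marker of astrocytes, was high in cKO 3, cKO 4 and WT 4, as were Trf and Cp, but cKO 5 differed. There Gfap was above its WT 4 level (174 against 166 FPKM). Trf (237 against 473 FPKM) and Cp (154 against 242 FPKM) were below theirs. The astrocyte list (7 of 8 measured, Pax2 absent from the table) summed to 196 to 361 FPKM in WT and 306 to 461 in cKO, and its other 6 measured members without Gfap to 140 to 195 and 151 to 192. With the block 2 of the 7 rose, Gfap and S100b (0.44, adjusted p = 0.469, and 0.0467 with the block). Aqp4, the next highest after Gfap and also on the Müller list, fell (−0.35, adjusted p = 0.478, and 0.0346 with the block). Gfap, also a gene of reactive Müller cells, was at 56.3, 89.4, 166 and 55.3 FPKM in WT 1, 3, 4 and 5 and at 155, 304, 241 and 174 in cKO, with a difference of 1.35 (adjusted p = 0.435, and 0.00521 with the block). WT 4 was the highest WT library for Gfap, Trf and Cp, and cKO 3 was the highest of all for each of them. The part of astrocytes or gliosis in the Trf and Cp values was not tested. Markers of the retinal pigment epithelium and of oligodendrocytes, cells known for transferrin, are given for comparison. Ttr and Rdh5, the 2 of 8 pigment epithelium markers in the table, summed to 5.03 to 10.6 FPKM in WT and 5.57 to 9.33 in cKO, with Rpe65, Best1 and Lrat absent. The oligodendrocyte list (3 of 8, Cnp and Mbp highest, without Mog, Mag and Sox10) summed to 83.5 to 139 and 98.0 to 121 FPKM, and the pericyte list (3 of 8, Vtn and Rgs5 highest) to 68.3 to 107 and 103 to 116. Of the pericyte genes Rgs5 was higher in each cKO library than in any WT library (0.76, adjusted p = 0.149, and 0.00277 with the block), while Vtn and Pdgfrb differed by −0.03 and −0.25 and did not pass.

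Among the enzymes that break heme down, none passed the threshold in either fit. Hmox1, the inducible heme oxygenase (ENSMUSG00000005413; GRCm38 chromosome 8, 75093621 to 75100589, plus strand), was at 2.93, 6.06, 5.72 and 2.59 FPKM in WT 1, 3, 4 and 5 and at 7.06, 6.66, 4.96 and 3.74 in cKO. WT 1 and WT 5 were the lowest libraries and cKO 1 the highest, and the groups overlapped. Pair 1 differed by 1.14 and the other pairs by 0.13, −0.19 and 0.46. The difference was 0.38 (95% interval −0.25 to 1.02, or 0.840-fold to 2.03-fold, adjusted p = 0.603, and 0.255 with the block), and without pair 1 it was 0.13 with the block (adjusted p = 0.679). The interval is thus wide on the side of higher levels in cKO.

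Hmox2, the constitutive heme oxygenase, was at 33.4, 31.0, 36.9 and 35.6 FPKM in WT 1, 3, 4 and 5 and at 35.7, 33.2, 41.1 and 38.9 in cKO. Each cKO library was above the WT library of its number by a nearly equal step of 0.09, 0.10, 0.15 and 0.13, and the ranges overlapped. The difference was 0.12 (95% interval −0.10 to 0.34, adjusted p = 0.641, and 0.234 with the block). There was more Hmox2 than Hmox1 RNA per length in every library, the ratio of Hmox1 to Hmox2 being 0.128 ± 0.0578 in WT against 0.154 ± 0.0534 in cKO (SD, n = 4 per group, exact permutation p = 0.429, adjusted 0.429). Cdip1 overlaps Hmox2 on the other strand and is in the table, so part of the Hmox2 value is uncertain.

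Blvra, the main biliverdin reductase, was at 14.5, 13.5, 18.0 and 17.2 FPKM in WT 1, 3, 4 and 5 and at 15.8, 13.5, 18.1 and 17.6 in cKO. Libraries of equal number were almost level and the difference was 0.04 (95% interval −0.25 to 0.33, adjusted p = 0.916, and 0.747 with the block). Blvrb, a flavin and biliverdin reductase best known from red cells, was at 4.33, 3.79, 6.11 and 4.62 FPKM in WT and at 5.07, 5.47, 5.42 and 5.23 in cKO. The cKO values lay within a 1.08-fold range inside the 1.61-fold range of WT, and the difference was 0.17 (95% interval −0.16 to 0.50, adjusted p = 0.651, and 0.416 with the block). The ratio of Blvra to Blvrb was 3.40 ± 0.340 in WT against 3.07 ± 0.422 in cKO (SD, n = 4 per group, exact permutation p = 0.286, adjusted 0.429).

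Fech, ferrochelatase (ENSMUSG00000024588), works in the opposite sense and inserts iron into protoporphyrin at the end of heme synthesis. It was at 14.5, 17.7, 17.8 and 19.0 FPKM in WT 1, 3, 4 and 5 and at 18.1, 16.0, 17.2 and 17.6 in cKO. WT 1 was the lowest library, all cKO values lay within the WT range, and the difference was 0.00 (95% interval −0.23 to 0.23, adjusted p = 0.989, and 0.981 with the block).

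**Figure D3:**
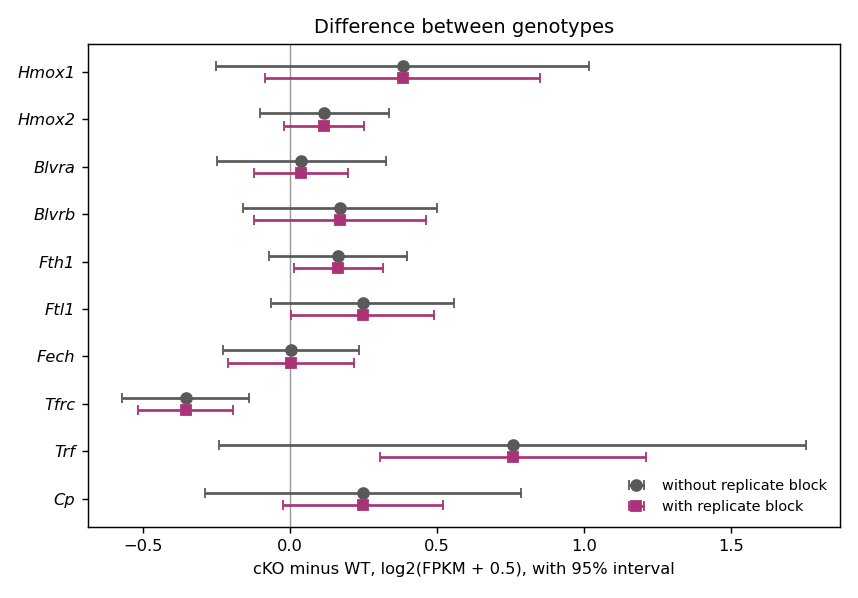
Difference between cKO and WT in log2(FPKM + 0.5) for each gene with its 95% interval, without (grey circles) and with (purple squares) the replicate number as a block. The intervals of Tfrc lie below 0 in both fits, that of Trf lies above 0 with the block alone, and those of Fth1 and Ftl1 with the block start just above 0, without passing after adjustment over all genes.

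Counted together, 0 of 10 members passed without the block (limma), as did 0% of all genes. At an unadjusted p under 0.05, 1 of 10 did, Tfrc, against 10.6% of all genes (3.95% higher and 6.67% lower). With the block 2 of 10 passed, Trf higher and Tfrc lower, where 10.6% of all genes passed (2.99% higher and 7.59% lower). At an unadjusted p under 0.05 with the block 4 of 10 did, with Fth1 and Ftl1 added, against 28.4% of all genes (12.4% higher and 16% lower). The groups did not overlap in 1 of 10 members, Tfrc, and in 4.34% of all genes (2.06% higher and 2.28% lower). All 4 pairs differed one way in 3 of 10, Hmox2 and Fth1 higher and Tfrc lower, and in 36.2% of all genes (16.7% higher and 19.5% lower). Among 10 members 1 gene is a step of 10%, so none of these counts sets the members apart from the table. The median difference was 0.17 for the members and 0.00 for all genes, and 9 of 10 members were above 0 against 50.7% of all genes. Among the 9, Fech (0.004) and Blvra (0.04) were nearly level between the groups. The count was 7 of 10 without cKO 5 and in the libraries with Xist alone. By pair, 9, 7, 4 and 6 of 10 members were higher in cKO for numbers 1, 3, 4 and 5. The medians by pair were 0.30, 0.17, −0.03 and 0.03, so the upward median rested on pairs 1 and 3. Pairs 4 and 5 were also those unlike in Xist, and the part of sex in this split was not tested.

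Beyond the members, 58 of 77 listed genes of heme and iron handling and its regulators were in the table. With the block 0 were higher and 5 lower past the threshold (8.62%, against 10.6% of all genes). The 5 were Lrp1, Mcoln1, Neo1 and the regulators Mafg and Nfe2l2. Nfe2l2 is the gene deleted in cKO, so its fall is set by the design. Of the 7 measured genes of heme synthesis before Fech, 0 passed. All 7 were below 0 (median −0.21), where 50.7% of all genes were above 0. Urod (−0.02) and Alad (−0.04) were nearly level between the groups, and only Uros and Ppox were lower in all 4 pairs. Ppox, protoporphyrinogen oxidase, had 27.5 ± 5.17 FPKM in WT against 20.9 ± 4.37 in cKO (SD, n = 4 per group, −0.39, adjusted p = 0.469, and 0.0603 with the block). Cpox, the enzyme before it, was at 12.1 ± 2.45 and 10.1 ± 0.361 FPKM (−0.23, adjusted p = 0.271 with the block). Alas1, which starts the pathway and is rate-limiting outside red cells, was at 25.0 ± 5.15 and 21.4 ± 1.06 (−0.20, adjusted p = 0.326 with the block). Alas2, the red cell form, was not in the table.

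Of 11 measured heme transport and binding genes, Lrp1, which takes up heme bound to hemopexin among many other ligands, fell with the block from 74.7 ± 12.1 to 58.8 ± 8.74 FPKM (−0.34, adjusted p = 0.469, and 0.0144 with the block), and 10 did not pass. Without pair 3 or pair 4 Lrp1 was not past the threshold (adjusted p = 0.0590 and 0.0717 with the block). Pgrmc1, a heme-binding membrane protein, was at 176 ± 13.7 and 206 ± 23.7 FPKM (0.22, adjusted p = 0.0519 with the block). Slc48a1, which carries heme out of lysosomes, was at 38.3 ± 5.26 and 43.9 ± 5.19 FPKM (0.20, adjusted p = 0.182 with the block).

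Of 8 measured genes of iron uptake, export and reduction, Mcoln1, a lysosomal cation channel that lets out iron, fell with the block from 33.1 ± 5.93 to 24.1 ± 3.05 FPKM (−0.44, adjusted p = 0.453, and 0.00772 with the block). Its groups did not overlap, and it was past the threshold without each pair in turn, at adjusted p between 0.0273 and 0.0410 with the block. Heph, a membrane ferroxidase related to ceruloplasmin, was at 10.2 ± 2.05 and 8.04 ± 1.46 FPKM (−0.33, adjusted p = 0.0626 with the block). Slc25a28, a mitochondrial iron importer, was at 13.6 ± 1.29 and 11.6 ± 1.51 (−0.23, adjusted p = 0.159 with the block). The iron exporter Slc40a1 was among the 8 listed genes not in the table.

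Of 10 measured genes of iron sensing and ferritin turnover, Neo1, a receptor that binds hemojuvelin and also guides axons, fell with the block from 37.5 ± 3.47 to 30.8 ± 1.88 FPKM without overlap (−0.28, adjusted p = 0.453, and 0.0359 with the block). Neo1 was not past the threshold without any 1 of the pairs (adjusted p between 0.0709 and 0.126). Ncoa4, which delivers ferritin to lysosomes, was at 9.34 ± 1.44 and 7.54 ± 1.90 FPKM (−0.31, adjusted p = 0.140 with the block), and Pcbp1, a chaperone that loads iron into ferritin, at 190 ± 14.9 and 212 ± 11.6 (0.16, adjusted p = 0.122 with the block). The iron regulatory proteins Aco1 and Ireb2 differed by −0.02 and −0.12 and did not pass (adjusted p = 0.858 and 0.254 with the block). Of these, Aco1 and Ireb2 were named for their link to the hairpins after their values were seen.

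Of 15 measured genes of iron-sulfur cluster assembly 0 passed (median 0.02, range −0.26 to 0.24). Isca1, an assembly factor, had 28.8 ± 1.82 FPKM in WT against 33.9 ± 5.09 in cKO (0.22, adjusted p = 0.0960 with the block). Ciao1 was at 31.0 ± 4.77 and 36.1 ± 3.63 FPKM and Fdxr, ferredoxin reductase, at 11.6 ± 2.02 and 9.55 ± 1.36 (adjusted p = 0.255 and 0.157 with the block). Among 7 regulators, 2 fell with the block, Nfe2l2 and its partner Mafg, and 5 missed the threshold. Mafg went from 29.5 ± 8.57 to 22.2 ± 5.90 FPKM (−0.39, adjusted p = 0.516, and 0.0296 with the block), and it was past the threshold without pair 5 (0.0428) and not without pair 1 (0.0953), 3 (0.0818) or 4 (0.0784). Bach1 was at 6.88 ± 0.727 and 7.34 ± 0.942 FPKM (0.08, adjusted p = 0.580 with the block) and Keap1 at 24.1 ± 3.38 and 24.7 ± 1.93 (0.732). Maff, another small partner protein, was at 2.65 ± 0.939 and 3.88 ± 0.755 FPKM (0.51, adjusted p = 0.186 with the block).

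**Figure D4:**
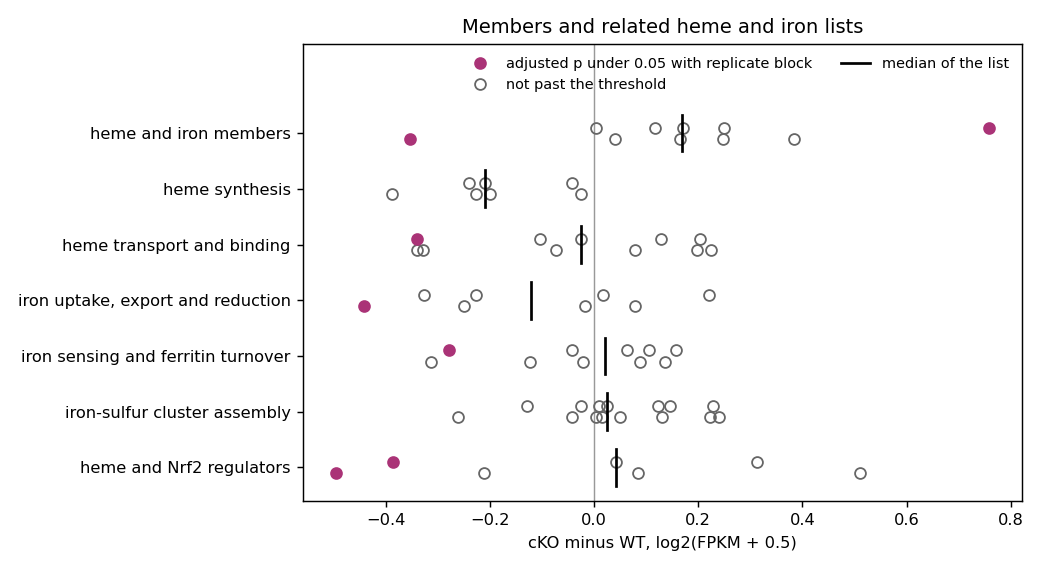
Difference between cKO and WT in log2(FPKM + 0.5) for the 10 members and the 6 lists of related genes, 1 point per gene, with the median of each list as a black bar. Filled points passed the adjusted threshold of 0.05 with the replicate block. All 7 heme synthesis genes lie below 0 as open points, Urod and Alad close to it, and the only filled point above 0 is Trf among the members.

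The core of the antioxidant response element, TGACNNNGC on either strand, was looked for in RefSeq promoters of GRCm38.p6, 250 bases before to 50 bases after the start site. Of the members, 7 had a promoter in that collection, in 13 windows, and 1 window, of Blvra, held a match at chr2:127070608-127070616, against 12.4% of all 32851 windows. In the other 12 windows these letters did not occur. Sequence farther from the start site was not searched, nor were the members without a promoter in the collection. The search therefore cannot say whether a member has such an element elsewhere.

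For the inducible enzyme Hmox1 and the glial ferroxidase Cp, the genes with the most similar course over the 8 libraries, after removal of each group mean, are given as a description. They share the libraries and any feature of these that moves many genes. For Hmox1 they were Sorl1 (Pearson r = 0.959 over 8 libraries), Pnpla7 (0.949) and Scnm1 (0.949). Sorl1, a sorting receptor, had 27.5 ± 2.70 FPKM in WT against 21.9 ± 2.22 in cKO (−0.32, adjusted p = 0.453, and 0.0318 with the block), against the direction of the Hmox1 means. For Cp they were Fads3 (0.992), Padi2 (0.987) and Boc (0.986). Fads3, a fatty acid desaturase family gene, had a difference of 0.40 (adjusted p = 0.482, and 0.0498 with the block).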

How the data were processed

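RNA from Müller cell ribosomes was sequenced in 4 WT and 4 cKO retina samples. The authors deposited 1 table of FPKM, the unit being given by its name. Per the submitters' processing notes, STAR, edgeR, GRCm38 and mm10 were used, with no version or role. The counting tool, annotation, strand setting and gene filter are not given in the sources used here. Every listed gene had a mean FPKM above 2. Depth is unknown, so no counting interval is given. The scale for tests was log2(FPKM + 0.5), compared with limma 3.58.1 in R 4.3.3 (eBayes with a trend, two-sided, Benjamini-Hochberg over 12339 genes, threshold 0.05). A fold change on this scale is understated for low genes. The replicate number was added as a block in a second fit. After removal of group means, WT and cKO libraries of equal number correlated across genes at 0.261 to 0.591 and of unequal number at −0.479 to 0.211. All 8 libraries correlated best with the library of their own number in the other group. The rule set asked for every equal-number correlation above 0.1, a limit that the highest unequal-number value also passed. The labels state no pairing, so the numbers were treated as pairs from these same data. Results that passed only with the block rest on that choice. Ratios of members were compared with exact permutation tests. The fits were also run on simulated data with planted changes. These changes were larger than the difference of any member, so recovery at the size of the member differences was not tested. Of the gene IDs, 12327 were in GENCODE mouse release 21, the source of positions and transcripts.

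Members and lists were chosen with earlier results of these data known. Named genes were all members, Nfe2l2, Keap1 and Bach1, the members of each related list past the threshold in either fit (at least 3 per list, by smallest p), and the 3 genes most like Hmox1 and Cp. Of each marker list the 2 highest genes were to be named, and some of these are not reported here.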

Additional observations from a re-analysis of the deposited data

Results flagged for a closer look

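In 4 of 70 groups of 4 libraries, 1 library stood apart from the other 3 by more than the 95% critical value of Dixon's test allows, and chance flags about 1 group in 20. Cpox in cKO 3 was at 9.56 FPKM, below the other cKO libraries. Heph in cKO 4 was at 10.2 FPKM, above the other cKO libraries. Mcoln1 in WT 3 was at 41.9 FPKM and Isca1 in WT 3 at 26.1 FPKM, the first above and the second below the other WT libraries. None of the 10 members and none of their 5 ratios was among them.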

How the results depend on the processing

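Without the replicate block, 0 members passed under each setting run (other pseudocounts, a minimum mean FPKM of 5, which removed Hmox1, 3 scalings, library weights, eBayes without trend or robust, a threshold of 0.1, each library left out, and the libraries with Xist alone). Of all genes 0 passed there, except 1 with library weights and 1 in the libraries with Xist. With the block, 2 members and 1305 genes passed, with the block and median-of-ratios scaling 2 and 1300, with TPM scaling 2 and 1337, and with quantile scaling 1 (Tfrc) and 1064. Leaving out 1 pair left 0 to 1 members and 402 to 821 genes (402, 606, 524 and 821 without pair 1, 3, 4 and 5), and leaving out 1 library without the block left 0 of each. Fech was at −0.028 with TPM scaling, with or without the block, and at −0.012 in the libraries with Xist, where Blvra was at −0.10 and Keap1 at −0.044. Fech ran from −0.075 to 0.052 without 1 library and from −0.099 to 0.0535 without 1 pair, Blvra from −0.031 to 0.12 and Keap1 from −0.022 to 0.11. The cause of these changes was not tested. The other 8 members kept their direction in every setting run. None of the 5 ratios passed after adjustment in any setting run, and the exact sign flips over 4 pairs, the replicate block for a ratio, allow no p below 0.125. Heph passed with the block and TPM scaling (adjusted p = 0.0417), and not with the block alone. With 4 libraries per group and an unknown depth, what depth adds to the error of each member was not tested.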

Other observations

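The 203 genes of the table whose transcripts hold the hairpin pattern searched for in Fth1, Ftl1 and Tfrc had a median difference of −0.01 (log2). With the replicate block 3 of them were higher and 23 lower past the threshold (12.8%, against 10.6% of all genes). The pattern was matched anywhere in a transcript, so most of these matches are not known regulatory elements.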
